A study of Mus musculus with 51 samples.

Results

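The 10 genes described here are 6 transcription factors that drive epithelial-mesenchymal transition (EMT), Zeb1, Zeb2, Snai1, Snai2, Twist1 and Twist2, and 4 cadherins, Cdh1, Cdh2, Cdh4 and Cdh11, out of 22359 protein-coding genes of the mouse annotation. Studied at each gene were the H3K27ac and H3K4me1 peaks that overlapped the mm9 gene body of each gene with 20 kb added on each side, here called the gene window. Chromatin was profiled at 3 stages of an in vitro course from C57/BL-6 mouse embryonic stem cells to astrocytes. Astrogliogenic progenitors (aNPC) grew in DMEM-F12 with N2 and 10 ng/ml each of EGF and FGF-2, and early (eA) and late (lA) astrocytes were sampled after 1 and 5 days in DMEM with 1% FBS and LIF. For every stage and mark, 2 biological replicates were merged before peak calling, so each stage has 1 peak list per mark, no error between cultures and no test, and every difference below is a description of these 6 lists. The cells are an in vitro model, and in such bulk samples fewer cells with a mark and less mark per cell cannot be told apart.

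Wherever 3 values follow each other they stand for aNPC, eA and lA, in that order. The H3K27ac lists held 79413, 83433 and 92700 peaks, and the H3K4me1 lists 154238, 185478 and 208333. The depth behind them is unknown, so the −log10 q of a peak, the peak caller's significance, cannot be compared between lists. The percent of peaks of its own list that scored higher is therefore given with it, and a small percent means a peak near the top of its list. As a check of the labels, the progenitor markers Nes, Sox2 and Pax6 had promoter H3K27ac at all 3 stages. Of 7 astrocyte markers, 4, 4 and 5 had it, with Gfap, Slc1a3 and Sox9 marked at every stage, aNPC included, S100b in aNPC only, Gja1 in eA and lA, Aqp4 in lA only and Aldh1l1 in none. The pluripotency genes Pou5f1 and Nanog, and the 12 markers listed for oligodendrocytes, fibroblasts or mural cells, endothelium and microglia, had no promoter H3K27ac at any stage, and of 3 neuronal markers only Tubb3 had it.

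EMT is the programme by which epithelial cells give up cell-cell adhesion and become migratory. Zeb and Snai proteins are zinc finger factors, and Twist proteins are basic helix-loop-helix factors; all bind E-box motifs, and repression of E-cadherin (Cdh1) through E-boxes in its promoter is their best known act. In neural development E-cadherin gives way to N-cadherin (Cdh2), the main cadherin of neural progenitors and astrocytes, while R-cadherin (Cdh4) is a cadherin of the developing brain and Cdh11 one of mesenchymal cells. H3K4me1 marks enhancers whether active or only primed, and H3K27ac marks active enhancers and promoters.

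The sequences upstream of the start sites are shown for 6 of the genes, to cover several combinations of the marks at the promoter. Each is the 250 bases before the 5′-most coding start, 5′ to 3′ on the gene's strand, in mm9, with capitals for CAGGTG or its reverse complement CACCTG, the E-box of Zeb and Snai proteins. The promoters of Cdh1, Snai2 and Twist2 carried H3K4me1 but no H3K27ac at any stage, that of Snai1 gained a weak H3K27ac peak in lA, that of Cdh4 carried both marks throughout, and that of Cdh11 had H3K27ac in eA only.
Cdh1, chr8:109127001-109127250, plus strand: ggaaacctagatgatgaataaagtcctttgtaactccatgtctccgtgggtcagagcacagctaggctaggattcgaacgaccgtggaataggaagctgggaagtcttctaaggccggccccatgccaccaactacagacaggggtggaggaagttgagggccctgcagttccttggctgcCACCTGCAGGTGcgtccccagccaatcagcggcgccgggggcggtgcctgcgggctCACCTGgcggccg
Snai2, chr16:14705695-14705944, plus strand: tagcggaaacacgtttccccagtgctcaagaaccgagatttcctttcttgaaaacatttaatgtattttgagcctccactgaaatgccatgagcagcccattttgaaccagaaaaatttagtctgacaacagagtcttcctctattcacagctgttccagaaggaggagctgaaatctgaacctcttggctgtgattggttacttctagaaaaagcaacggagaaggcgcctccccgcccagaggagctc
Twist2, chr1:93697788-93698037, plus strand: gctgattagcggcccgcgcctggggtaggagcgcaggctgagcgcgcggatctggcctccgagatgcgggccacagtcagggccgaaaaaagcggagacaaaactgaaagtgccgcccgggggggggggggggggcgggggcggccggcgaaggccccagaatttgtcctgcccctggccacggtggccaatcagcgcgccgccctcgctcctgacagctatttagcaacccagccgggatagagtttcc
Snai1, chr2:167363445-167363694, plus strand: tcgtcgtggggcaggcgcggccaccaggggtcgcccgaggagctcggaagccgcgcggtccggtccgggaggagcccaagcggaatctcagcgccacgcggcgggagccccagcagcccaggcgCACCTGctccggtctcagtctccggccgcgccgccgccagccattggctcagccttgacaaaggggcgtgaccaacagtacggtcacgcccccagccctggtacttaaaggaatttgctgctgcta
Cdh4, chr2:179176886-179177135, plus strand: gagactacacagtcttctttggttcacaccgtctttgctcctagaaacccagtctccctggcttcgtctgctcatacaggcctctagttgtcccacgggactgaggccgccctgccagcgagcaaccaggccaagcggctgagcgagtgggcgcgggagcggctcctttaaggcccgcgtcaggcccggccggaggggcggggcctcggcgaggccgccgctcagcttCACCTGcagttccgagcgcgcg
Cdh11, chr8:105309012-105309261, minus strand: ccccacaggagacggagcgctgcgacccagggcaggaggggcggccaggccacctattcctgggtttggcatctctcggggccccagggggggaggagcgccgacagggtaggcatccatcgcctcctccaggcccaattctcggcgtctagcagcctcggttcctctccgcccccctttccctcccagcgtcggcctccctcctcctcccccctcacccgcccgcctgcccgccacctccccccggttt

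Cdh1 held 3 matches of the E-box, beginning 69, 63 and 13 bases before the start, and the 2 farthest from the start abut to form CACCTGCAGGTG. At least 1 match was present in 16.9% of 22354 coding genes with the same 250 bases, 2 or more in 2.09% and 3 or more in 0.246%. The abutting pair, looked for after the Cdh1 sequence had been seen, occurred upstream of 2 of the 22354 genes (0.00895%), Cdh1 included. Snai1 held 1 match 126 bases before its start, and Cdh4 held 1 match 22 bases before. Zeb1 held 2 matches, 221 and 63 bases before its start. Snai2, Twist1, Twist2, Zeb2, Cdh2 and Cdh11 held none in these 250 bases. The GC content of the 10 upstream sequences ran from 46.0% at Snai2 to 79.6% at Cdh2, against a median of 54.4% over all genes. A match is a string of letters and not a measured binding site.

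The 200 bases around the summit of 5 distal H3K27ac peaks are shown because they stand for the stage patterns described below. They are given on the strand of the gene in mm9, with capitals for any of 5 motifs. These are CAGGTG as above, CAGATG (the E-box of Twist), the AP-1 and Atf3 motif TGANTCA, the NF1 half-site TTGGCA and AACCACA (Runx), on either strand.
Cdh4 site found in aNPC only, chr2:179535043-179535242, plus strand: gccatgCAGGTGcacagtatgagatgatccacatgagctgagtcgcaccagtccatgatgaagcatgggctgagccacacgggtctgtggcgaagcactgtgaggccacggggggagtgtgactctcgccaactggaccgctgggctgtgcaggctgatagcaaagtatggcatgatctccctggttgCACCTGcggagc
Cdh4 site of every stage, chr2:179578192-179578391, plus strand: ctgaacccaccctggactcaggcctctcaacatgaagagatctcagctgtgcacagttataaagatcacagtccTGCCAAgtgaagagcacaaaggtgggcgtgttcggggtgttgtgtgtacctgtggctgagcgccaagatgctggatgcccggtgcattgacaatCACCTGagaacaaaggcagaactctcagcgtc
Cdh4 site found in lA only, chr2:179285671-179285870, plus strand: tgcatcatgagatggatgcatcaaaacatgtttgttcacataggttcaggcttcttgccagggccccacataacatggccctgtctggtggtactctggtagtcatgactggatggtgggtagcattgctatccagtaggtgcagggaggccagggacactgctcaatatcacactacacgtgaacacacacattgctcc
Twist2 site found in lA only, chr1:93713627-93713826, plus strand: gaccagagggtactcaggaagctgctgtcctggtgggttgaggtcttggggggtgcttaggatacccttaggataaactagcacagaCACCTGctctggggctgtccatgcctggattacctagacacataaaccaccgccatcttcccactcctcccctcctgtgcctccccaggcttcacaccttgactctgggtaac
Snai1 site found in lA only, chr2:167387961-167388160, plus strand: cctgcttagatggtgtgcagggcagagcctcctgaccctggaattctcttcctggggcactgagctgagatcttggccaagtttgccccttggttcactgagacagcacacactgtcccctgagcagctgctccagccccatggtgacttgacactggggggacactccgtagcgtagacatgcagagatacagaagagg

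Over the 10 windows, H3K27ac peaks numbered 123, 109 and 113 and H3K4me1 peaks 203, 228 and 265. From aNPC to eA, 6 genes had more H3K27ac peaks and 3 had fewer (Zeb1, Twist2 and Cdh4), where 41.2% of all coding genes had more and 21.7% had fewer. From eA to lA 4 had more and 4 fewer, where 28.2% and 31.1% did. From aNPC to lA, 6 genes had more H3K27ac peaks, 3 had fewer (Zeb1, Cdh1 and Cdh4) and Snai2 had none, where 39.0% of all coding genes had more and 24.2% had fewer. By covered length, which weighs wide peaks more, 4 genes had more H3K27ac in lA than in aNPC and 5 had less, Zeb2 and Twist1 changing sides. This tally stands without a share of all coding genes by covered length. For H3K4me1, 5 genes had more peaks in eA than in aNPC and 3 fewer (48.9% and 18.8% of coding genes), and 8 had more in lA than in eA and 1, Snai1, fewer (40.0% and 30.1%). From aNPC to lA, 6 genes had more and 3 had fewer (Zeb1, Snai1 and Cdh1), against 51.5% and 20.7% of coding genes. With lists cut to equal length, keeping the highest −log10 q, the H3K4me1 totals became 203, 187 and 196 and the tallies against aNPC turned. Then 3 genes (Twist2, Cdh2 and Cdh11) had more H3K4me1 peaks in eA than in aNPC and 5 had fewer, against 30.2% and 34.7% of coding genes. From aNPC to lA, 4 (Snai2, Twist2, Cdh2 and Cdh11) had more and 5 fewer, against 28.6% and 40.9%. The tally from eA to lA kept its direction, with 6 genes more and 3 fewer, against 28.0% and 38.4%. Zeb1 and Cdh4 held most of the aNPC H3K27ac peaks. Without them the H3K27ac counts were 37, 54 and 54, so the order of aNPC against the astrocyte stages turned with these genes. Long genes have long windows: those of Zeb1, Cdh2 and Cdh4 spanned 224, 260.4 and 497 kb, and the median window of all coding genes was 55.4 kb.

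**Figure D1:**
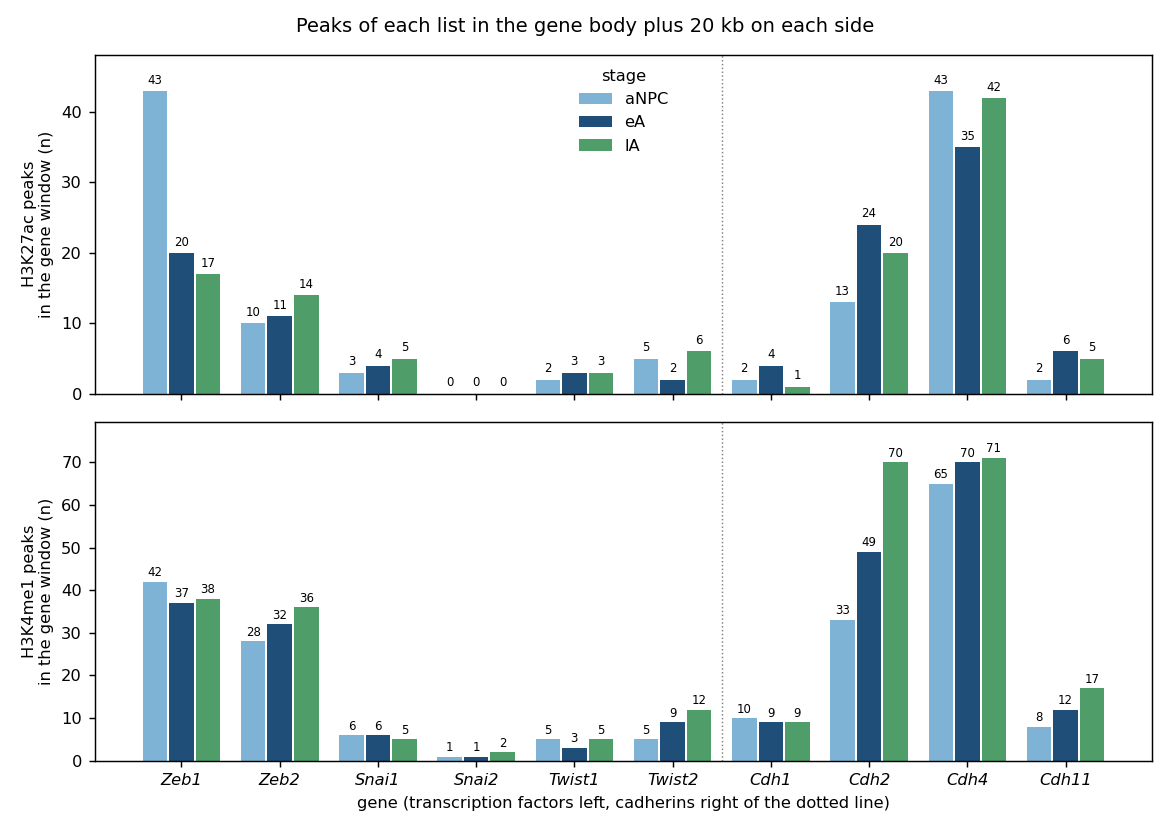
Number of H3K27ac (top) and H3K4me1 (bottom) peaks in the gene body plus 20 kb on each side, one bar per merged peak list of aNPC, eA and lA, with no replicate error. Zeb1 H3K27ac falls from 43 peaks to 17, Cdh2 H3K4me1 climbs from 33 to 70, and Snai2 has no H3K27ac peak.

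At the promoter, the 1 kb before and 100 bp after any coding start of the gene, 5, 6 and 6 of the 10 genes had an H3K27ac peak. Over all coding genes the shares were 50.6%, 53.2% and 48.2%. Zeb1, Zeb2, Twist1, Cdh2 and Cdh4 were acetylated at every stage, a state shared by 45.2% of coding genes. Snai1 had promoter H3K27ac in lA only (0.975% of coding genes) and Cdh11 in eA only (2.54%). With a promoter of 1 kb on either side of any start, 5, 6 and 7 genes had H3K27ac, Cdh11 then in lA too. Promoter H3K4me1 was present in 9 of the 10 genes at each stage, against 55.4%, 53.6% and 52.7% of coding genes, and was missing from Zeb2. With the wider promoter 10, 9 and 10 genes had it, Zeb2 included in aNPC and lA. Snai2, Twist2 and Cdh1 carried promoter H3K4me1 at every stage and H3K27ac at none, a combination found in 5.41% of coding genes.

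**Figure D2:**
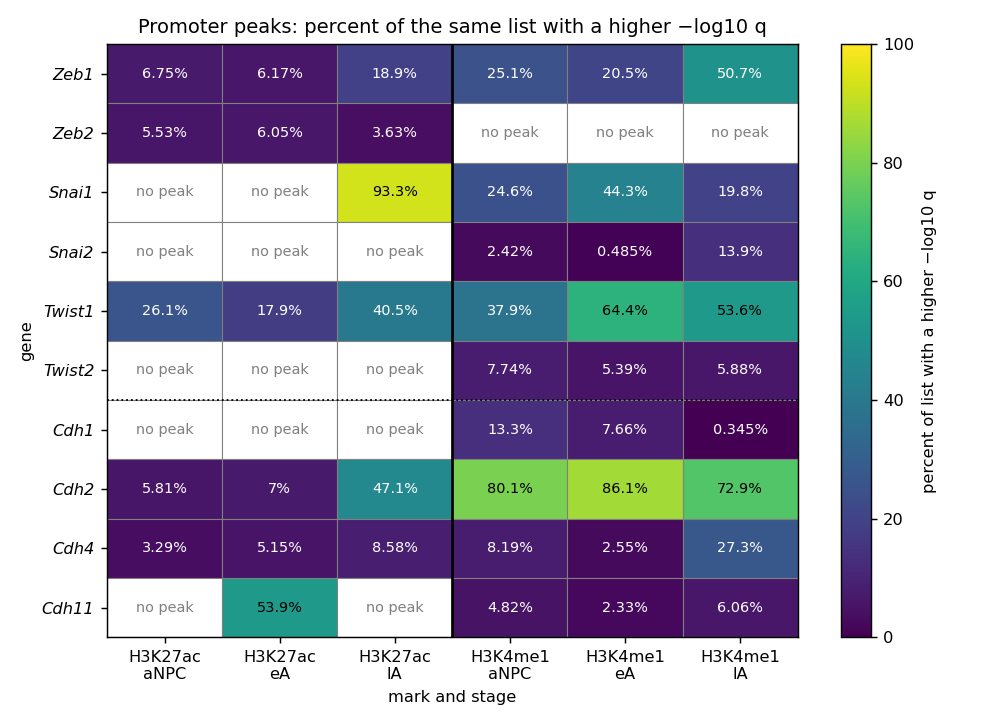
Promoter peaks of the 10 genes (rows) in the 6 lists (columns); the number and colour give the percent of peaks of the same list with a higher −log10 q than the strongest promoter peak, and white cells hold no promoter peak. Snai2, Twist2 and Cdh1 are empty for H3K27ac and near the top of the H3K4me1 lists; the main lA H3K27ac peak of Cdh2 began past the promoter boundary and is not in its cell, which shows a weaker peak at 47.1%.

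Zeb1 (ENSMUSG00000024238.5, chr18:5591858-5775465, plus strand) encodes a zinc finger repressor of epithelial genes. Its promoter held 1 H3K27ac peak at each stage, with a −log10 q of 100.8, 89.5 and 21.0, exceeded by 6.75%, 6.17% and 18.9% of the peaks of those lists. This peak also overlapped the promoter of the predicted gene Gm10125. It lay at internal starts, and promoter H3K4me1 lay at the 5′ start, at 20.1, 18.9 and 8.57, below 25.1%, 20.5% and 50.7% of the lists. In lA a second promoter H3K4me1 peak (chr18:5593748-5594612), at 7.31, below 59.0%, overlapped the H3K27ac peak. Across the window H3K27ac peaks numbered 43, 20 and 17 and covered 7.73%, 4.05% and 3.60% of it. The fall of 26 peaks from aNPC to lA was matched or exceeded by 13 of the 22359 coding genes, Zeb1 among them. The median coding gene had 3 H3K27ac peaks in aNPC, so most genes could not lose as many. The direction was the same when peaks under a −log10 q of 5 were dropped (26, 11 and 12 peaks), when lists were cut to equal length (43, 18 and 13) and when peaks under 1 kb apart were joined (27, 17 and 10). H3K4me1 peaks numbered 42, 37 and 38, and at a −log10 q of at least 5 they numbered 23, 26 and 32, the opposite direction. With lists of equal length they numbered 42, 29 and 32.

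Of the 50 distal H3K27ac sites of Zeb1, where overlapping peaks of the 3 lists make 1 site, 27 were found in aNPC only, that is 54% of them, where 23.9% of distal sites of the genome were. These were short, with a median width of 207 bp, and 18 of them, or 66.7%, overlapped no H3K4me1 peak at any stage, as did 23.5% of all distal H3K27ac peaks found in aNPC only. In aNPC itself 4 of the 27 overlapped H3K4me1, or 14.8%, while 68.3% of all distal H3K27ac peaks found in aNPC only did so. The 15 other distal aNPC peaks of Zeb1 had a median width of 607 bp, and over all distal aNPC peaks the medians were 285 bp for those found in aNPC only and 503 bp for the rest. The highest of the 27 aNPC-only peaks, 155.7 kb from the nearest coding start, had a −log10 q of 11.9, below 44.2% of its list. All 8 sites present at every stage overlapped H3K4me1 in every list, as did 93.0% of such sites over the genome. One lay in an intron 15.7 kb from the nearest start (chr18:5609283-5610694) and ranked below 19.9%, 20.5% and 15.5% of the H3K27ac lists.

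Zeb2 (ENSMUSG00000026872.8, chr2:44839154-44972915, minus strand), the relative of Zeb1 expressed widely in the nervous system, had 10, 11 and 14 H3K27ac peaks. Both promoter sites were acetylated throughout. The stronger one, at an internal start (chr2:44963802-44966872), had a −log10 q of 114.1, 90.6 and 57.6, below 5.53%, 6.05% and 3.02% of the lists, and the one at the 5′ start (chr2:44971583-44973234) had 86.1, 60.3 and 51.3, below 8.46%, 11.1% and 3.99%. In lA both sites were split into several peaks, and the highest of each lay past the promoter bounds, while the highest inside them had 53.5 at the internal start and 25.5 at the 5′ start, below 3.63% and 14.5% of the list. No H3K4me1 peak touched the Zeb2 promoters as defined, and H3K4me1 in the window numbered 28, 32 and 36, or 28, 27 and 28 with lists of equal length. Inside the gene, a site 42.6 kb from a start (chr2:44922663-44923430) had an H3K27ac −log10 q of 2.98 in aNPC, below 96.1% of its list, and of 16.6 and 12.4 in eA and lA, below 34.3% of each. It carried H3K4me1 at every stage. A peak 143.3 kb from the nearest coding start, which is the internal one, downstream of the gene, was found in aNPC only, at a −log10 q of 17.8, below 33.9% of the list.

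**Figure D3:**
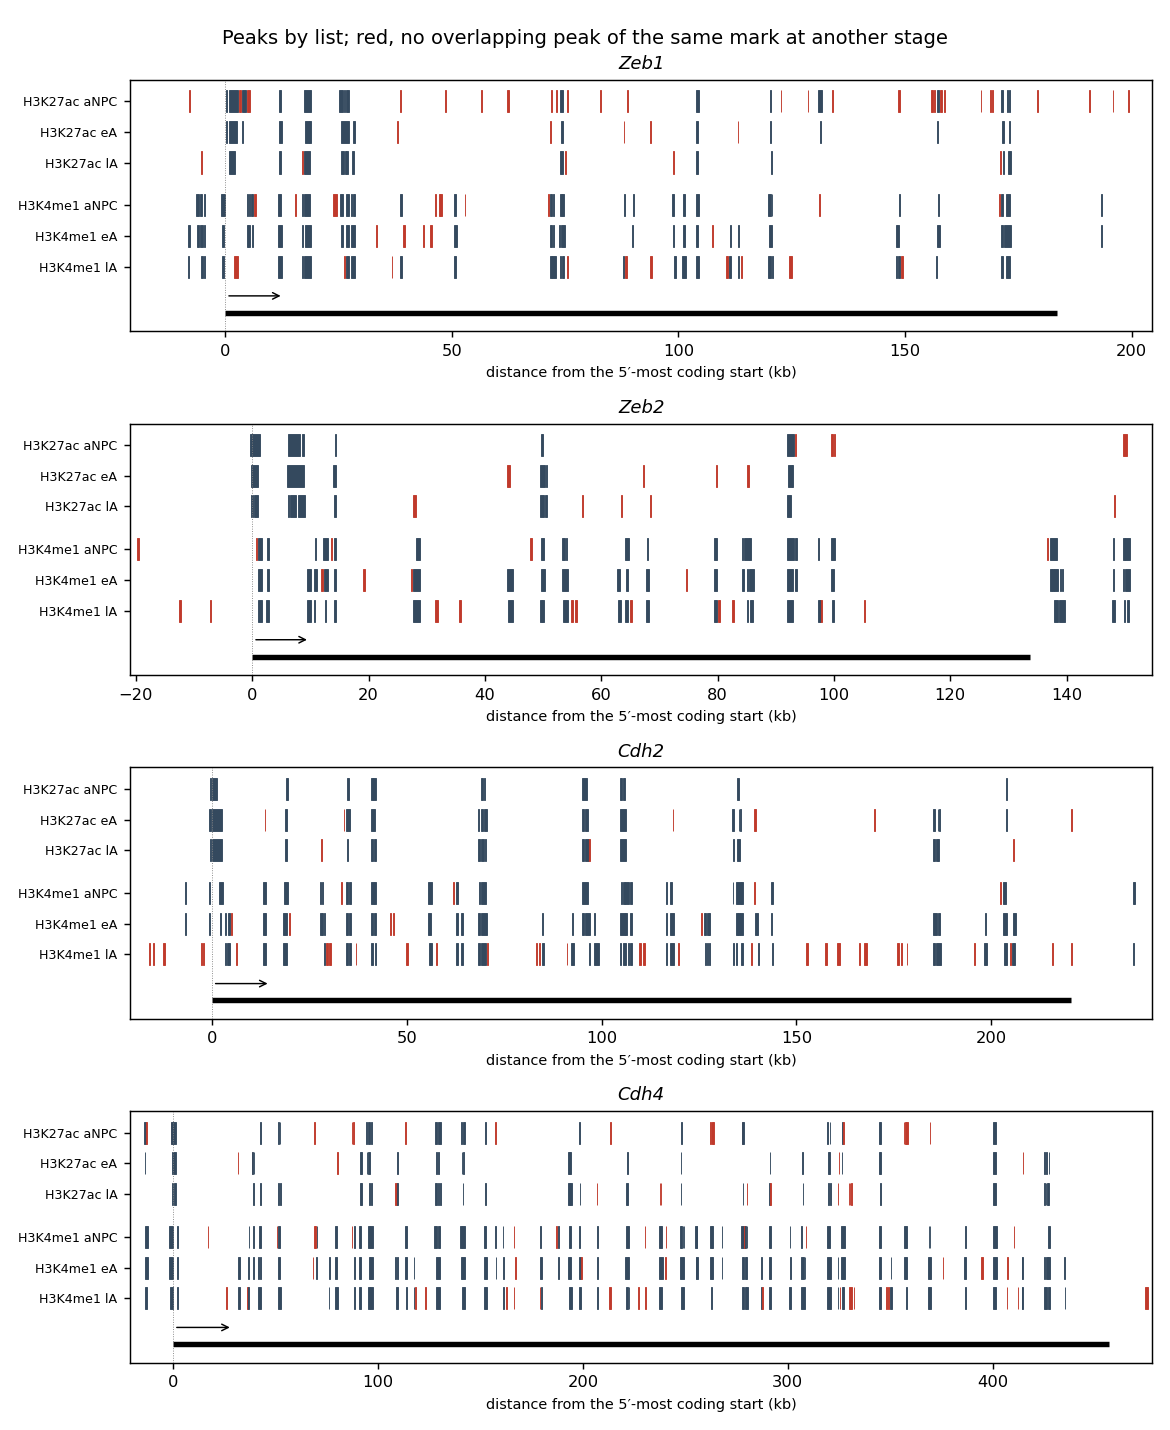
Peaks of the 6 lists at Zeb1, Zeb2, Cdh2 and Cdh4, drawn to scale by distance in kb from the 5′-most coding start in the direction of transcription; the black bar is the gene body and red peaks overlap no peak of the same mark at another stage. Zeb1 shows 27 red H3K27ac peaks in aNPC, and Cdh2 shows 31 red H3K4me1 peaks in lA.

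Snai1 (ENSMUSG00000042821.7, chr2:167363695-167368314, plus strand), the zinc finger factor Snail, had 3, 4 and 5 H3K27ac peaks. Its promoter had none in aNPC or eA and 1 in lA, and that peak was weak: a −log10 q of 3.43, below 93.3% of the list, so that it is gone at a threshold of 5. Promoter H3K4me1 was present at each stage, at 20.5, 10.3 and 17.1, below 24.6%, 44.3% and 19.8% of the lists. The stronger H3K27ac signal lay behind the gene. A site 5.62 kb past the start (chr2:167368434-167370336) was acetylated throughout, with a −log10 q of 19.5, 22.2 and 28.9, below 31.9%, 27.7% and 12.1% of the lists, and a second, 14.6 kb past it (chr2:167377904-167378971), was below 56.4%, 48.2% and 29.8%.

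Another Snai1 site, 24.4 kb past the start, was among the strongest H3K4me1 peaks of every list, with a −log10 q of 39.4, 45.6 and 39.8, exceeded by 5.31%, 1.15% and 0.919% of peaks. H3K27ac was found there in lA only, at 7.03, below 58.4% of the list (chr2:167387805-167388320, the last sequence shown above, which held none of the 5 motifs). In aNPC and eA it had H3K4me1 without H3K27ac. Whether these sites act on Snai1 is not measured by the lists.

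Snai2 (ENSMUSG00000022676.6, chr16:14705945-14709488, plus strand), the factor Slug of neural crest cells, had no H3K27ac peak in its window in any list, as had 20.3% of coding genes. Its H3K4me1 peaks, 1, 1 and 2 in number, all lay over the promoter. The aNPC peak had a −log10 q of 48.0, below 2.42% of the list, and the eA peak 53.4, below 0.485%. In lA the region was called as a pair of peaks, at 16.3 and 20.2, below 21.6% and 13.9%. The upstream sequence shown above had a GC content of 46.0% and 6 CpGs.

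Twist1 (ENSMUSG00000035799.5, chr12:34642536-34644682, plus strand), a factor of mesoderm and cranial neural crest, was acetylated at its promoter and over its short gene body at every stage. The promoter site held 1, 2 and 2 peaks, with a highest −log10 q of 26.2, 38.0 and 10.4. The gene body site (chr12:34643084-34644359) ranked higher, below 12.2%, 11.1% and 11.6% of the lists against 26.1%, 17.9% and 40.5% for the promoter site. No other H3K27ac peak lay in the window. H3K4me1 flanked the start, with a promoter peak below 37.9%, 64.4% and 53.6% of the lists. All 4 distal lA H3K4me1 peaks were found in lA only, where 29.7% of all distal lA peaks were. Of 4 distal aNPC H3K4me1 peaks, 2 were found in aNPC only, against 13.3% of all distal aNPC peaks.

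Twist2 (ENSMUSG00000007805.3, chr1:93698038-93744605, plus strand), a factor of dermal and other mesenchymal cells, carried an H3K4me1 peak over its start at every stage, with a −log10 q of 35.2, 31.9 and 26.8, below 7.74%, 5.39% and 5.88% of the lists, and no promoter H3K27ac. H3K27ac in the window numbered 5, 2 and 6 peaks and H3K4me1 5, 9 and 12. An intronic site 21.8 kb past the start (chr1:93719586-93720969) was acetylated in all 3 lists, at 7.42, 6.38 and 14.0, below 59.97%, 65.4% and 30.3% of the lists, and had H3K4me1 in eA and lA but not in aNPC. Another, 15.7 kb past the start (chr1:93713491-93713905), had H3K27ac in lA only, at 11.4, below 37.2% of the list. It had H3K4me1 at every stage, and its sequence above holds 1 CACCTG. Downstream of the gene, aNPC and lA had 3 H3K27ac peaks each and eA had none. One site there, 50.5 kb from the start, was shared by aNPC and lA, at 12.7 and 7.69, below 42.4% and 53.9% of those lists. The other lA peaks lay farther out, at 55.2 and 56.3 kb, with 4.33 and 11.3, below 84.8% and 37.4%.

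**Figure D4:**
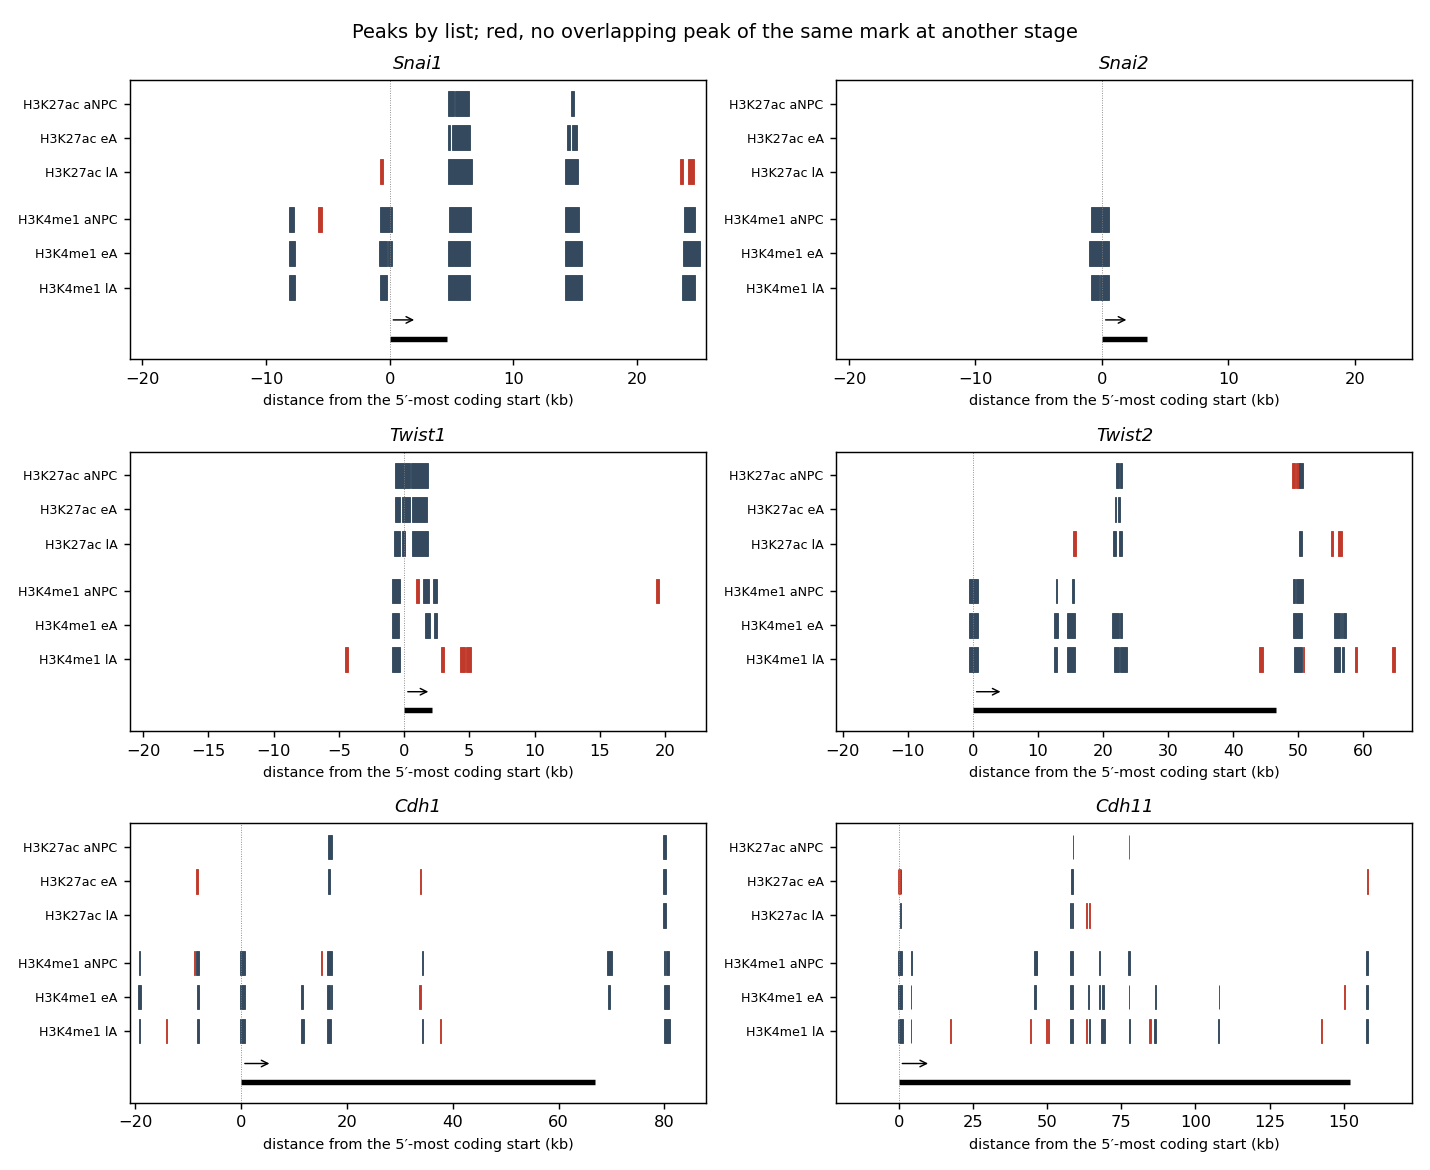
Peaks of the 6 lists at Snai1, Snai2, Twist1, Twist2, Cdh1 and Cdh11, drawn as distance in kb from the 5′-most coding start; the black bar is the gene body and red peaks overlap no peak of the same mark at another stage. Snai2 has H3K4me1 over its start and no H3K27ac, and the only Cdh1 H3K27ac peak present at every stage lies 79.9 kb from the start.

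Cdh1 (ENSMUSG00000000303.6, chr8:109127251-109194146, plus strand) encodes E-cadherin, the adhesion protein that epithelial cells lose in EMT. Its promoter carried H3K4me1 and no H3K27ac at all 3 stages. The H3K4me1 peak had a −log10 q of 28.6, 28.6 and 46.5, and was exceeded by 13.3%, 7.66% and 0.345% of its list. In lA its summit lay 1 base before the 5′ start, beside the E-boxes shown above. H3K27ac peaks in the window numbered 2, 4 and 1. The strongest, exceeded by 2.82%, 0.743% and 4.66% of the lists, lay 79.9 kb past the start over the promoter of the neighbouring gene Tmco7 (chr8:109206906-109207547). Leaving it out, Cdh1 itself had 1 H3K27ac peak in aNPC, 3 in eA and none in lA. An intronic one 16.5 kb past the start (chr8:109143677-109144347) had 14.5 in aNPC and 3.72 in eA, below 38.6% and 88.6% of the lists, and kept H3K4me1 in lA. The eA-only peaks were weak, at 5.00 and 2.55, below 76.2% and 97.8% of the list.

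Cdh2 (ENSMUSG00000024304.8, chr18:16747386-16967755, minus strand) encodes N-cadherin. The site at its 5′ start (chr18:16965259-16967775) was acetylated at each stage, with a −log10 q of 110.7, 83.2 and 37.4, below 5.81%, 7.003% and 7.85% of the lists. H3K4me1 just upstream of it was weak, at 5.00 in aNPC and 4.31 in eA, below 80.1% and 86.1%, with no peak there in lA. The lA promoter H3K4me1 peak lay at the internal start, at 5.76, below 72.9%. Promoter H3K27ac at the internal start was found in eA only (chr18:16828030-16828769), at 11.1, below 45.6% of the list. The gene window had 13, 24 and 20 H3K27ac peaks and 33, 49 and 70 H3K4me1 peaks. None of its 21 distal H3K27ac sites was found in aNPC only, where 23.9% of distal sites of the genome were. There were 7 sites at every stage, 5 shared by eA and lA, 5 in eA only and 3 in lA only, that is 33.3%, 23.8%, 23.8% and 14.3%, against 19.2%, 15.3%, 11.8% and 21.7% over the genome. The last site was shared by aNPC and eA.

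The gain of 37 H3K4me1 peaks from aNPC to lA at Cdh2 was reached or exceeded by 89 of the 22359 coding genes, and 30 of its 69 distal lA peaks were in no other list, or 43.5%, where 29.7% of all distal lA peaks were. The lA list is the longest. Cut to equal length, the lists gave 33, 39 and 46 peaks, and at a −log10 q of at least 5 they gave 27, 35 and 53. For H3K27ac the gain of 11 peaks from aNPC to eA was reached or exceeded by 163 genes, and lists of equal length gave 13, 23 and 20. The strongest distal H3K27ac site of Cdh2 in aNPC and eA, in an intron 44.0 kb upstream of the internal start (chr18:16871310-16872882), had a −log10 q of 27.6, 65.0 and 17.7, below 25.2%, 10.17% and 23.2% of the lists. In lA it ranked below a site nearer to that start (chr18:16861501-16863046), which had 19.2, 25.6 and 24.4, below 32.2%, 24.7% and 15.4%. A group of 3 neighbouring sites 46.1 to 47.4 kb past the internal start, within chr18:16780906-16782719, had H3K27ac in eA and lA only, at a −log10 q between 5.37 and 7.31, below 56.0% to 74.0% of the lists. All 3 carried H3K4me1 in eA and lA and none in aNPC.

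Cdh4 (ENSMUSG00000000305.6, chr2:179177136-179634078, plus strand) encodes R-cadherin and was the longest gene, with 43, 35 and 42 H3K27ac peaks and 65, 70 and 71 H3K4me1 peaks. Its promoter carried both marks in each list. The H3K27ac peaks there had a highest −log10 q of 151.0, 98.3 and 35.6, below 3.29%, 5.15% and 8.58% of the lists, and the H3K4me1 peak had 34.5, 38.6 and 14.3, below 8.19%, 2.55% and 27.3%. Of 66 distal H3K27ac sites, 18 were found in aNPC only, 5 in eA only, 10 in lA only and 12 in eA and lA, while 9 were present at every stage. These were 27.3%, 7.58%, 15.2%, 18.2% and 13.6% of its sites, against 23.9%, 11.8%, 21.7%, 15.3% and 19.2% over the genome. Lists cut to equal length gave 43, 33 and 32 H3K27ac peaks, and joined peaks 23, 22 and 26. For H3K4me1, lists of equal length turned the rise into a fall, with 65, 55 and 52 peaks.

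The strongest aNPC-only site lay in an intron 357.8 kb past the nearest start (chr2:179534783-179535784), with a −log10 q of 36.2, below 20.5% of the list. It was the strongest one-stage site of all 10 genes. H3K4me1 was present there at every stage, and its sequence above held 2 matches of CAGGTG. Another, 13.1 kb upstream of the gene (chr2:179163857-179164552), had 28.6, below 24.5% of the list, and also carried H3K4me1 throughout. Of the 18 aNPC-only sites, 15, 13 and 10 overlapped H3K4me1 at the respective stage, or 83.3%, 72.2% and 55.6%. Over all distal H3K27ac peaks found in aNPC only, 68.3%, 63.4% and 49.3% did so. At Zeb1 it was 4, 5 and 7 of the 27, or 14.8%, 18.5% and 25.9%. The strongest lA-only peak, 108.4 kb past the nearest start (chr2:179285584-179286335), had 12.4, below 34.3% of the list, and carried H3K4me1 in eA and lA but not in aNPC.

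One Cdh4 intron site 401.3 kb past the nearest start (chr2:179577178-179578931) held the highest distal H3K4me1 of any of the 10 genes. Its −log10 q of 60.9, 73.7 and 51.1 was exceeded by 0.750%, 0.0733% and 0.175% of the peaks of those lists. H3K27ac lay on it at each stage, below 37.8%, 18.9% and 12.3%. Its eA summit sequence above held 1 CACCTG and 1 TGCCAA, the reverse complement of the NF1 half-site. Other coding genes, Gm10711 and Taf4a, lie in the Cdh4 window.

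Cdh11 (ENSMUSG00000031673.5, chr8:105156895-105309011, minus strand) encodes OB-cadherin, known from bone and other mesenchymal tissue. H3K27ac was sparse, with 2, 6 and 5 peaks covering 0.231%, 0.897% and 0.837% of the window. The promoter peak was found in eA only (chr8:105309072-105309248), 177 bp wide with a −log10 q of 8.62, below 53.9% of the list. Past the promoter bounds, eA had further peaks 0.198 and 0.8 kb past the start. In lA a peak lay 0.677 kb past it, at 4.46, below 81.9% of the list. H3K4me1 over the start was strong throughout, at 40.5, 39.3 and 26.6, exceeded by 4.82%, 2.33% and 6.06%. In the window H3K4me1 peaks numbered 8, 12 and 17, and each H3K27ac peak ranked below at least 48.8% of its list. The site present at every stage, 58.6 kb into the gene (chr8:105250182-105250631), had 6.03, 6.85 and 6.59, below 68.8%, 63.5% and 61.0% of the lists.

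Across the 10 genes, 178 distal H3K27ac sites were defined, of which 29.2% were found in aNPC only, 12.9% in eA only, 16.9% in lA only, 6.18% in aNPC and eA, 4.49% in aNPC and lA, 11.8% in eA and lA and 18.5% at every stage. Over 115804 distal sites of the genome these shares were 23.9%, 11.8%, 21.7%, 4.55%, 3.63%, 15.3% and 19.2%. The genome-wide sites avoid the promoters of all coding genes, and those of the 10 genes avoid only the gene's own. By peaks, 52 of the 114 distal aNPC peaks were in no other list, as were 23 of 98 eA peaks and 30 of 103 lA peaks, or 45.6%, 23.5% and 29.1%, against 42.9%, 20.4% and 32.0% of all distal peaks. Zeb1 gave 27 and Cdh4 18 of the 52.

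**Figure D5:**
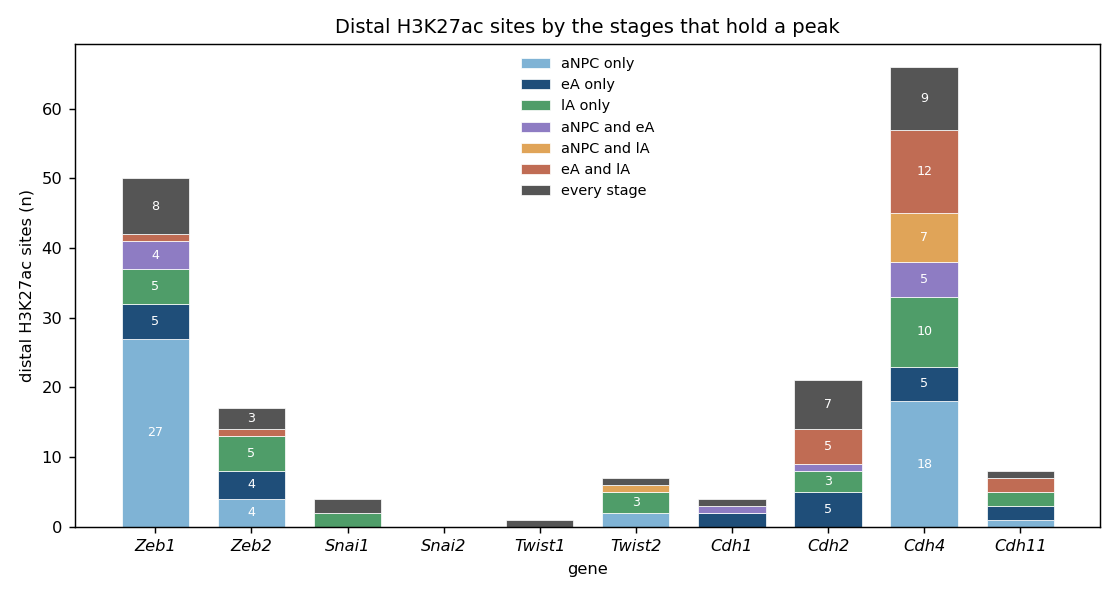
Distal H3K27ac sites of each gene, stacked by the stages whose list holds a peak there; the y axis counts sites. aNPC-only sites make up 27 of 50 at Zeb1 and 18 of 66 at Cdh4, and Cdh2 has none of 21.

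H3K4me1 was already present one stage earlier at 9 of the 23 distal H3K27ac peaks found in eA only, or 39.1%, and at 20 of the 30 found in lA only, or 66.7%. Over all distal peaks the shares were 58.7% and 60.2%. At the same stage H3K4me1 was present at 12 of the 23 and 23 of the 30, or 52.2% and 76.7%, against 73.2% and 73.0%. Of the 33 sites held at every stage, 32 carried H3K4me1 in aNPC, or 97.0%, beside 96.7% of all such sites. The other way round, 74 of 193, 71 of 218 and 72 of 253 distal H3K4me1 peaks carried H3K27ac at the same stage, that is 38.3%, 32.6% and 28.5%, beside 36.1%, 33.2% and 32.1% of all distal H3K4me1 peaks. Of the 253 lA peaks, 86 were found in lA only (34.0%, against 29.7%).

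The E-box CAGGTG lay within 100 bp of the summit of 14 of 114, 17 of 98 and 10 of 103 distal H3K27ac peaks, or 12.3%, 17.3% and 9.71%, where all distal peaks gave 13.7%, 13.7% and 14.6%. The Twist E-box CAGATG was at 18.4%, 16.3% and 19.4%, against 16.2%, 16.1% and 16.5%. TGANTCA was at 5.26%, 6.12% and 3.88%, against 6.52%, 6.43% and 6.15%. The NF1 half-site TTGGCA was at 11.4%, 7.14% and 8.74%, against 12.2%, 12.6% and 11.7%, and AACCACA at 6.14%, 4.08% and 4.85%, against 4.31%, 4.17% and 4.20%. These shares rest on 4 to 21 matching peaks each, and peaks of different stages share sequence.

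Other genes of the pathway were taken from fixed lists, to be read against the coding genes at large, of which 50.6%, 53.2% and 48.2% had promoter H3K27ac and 45.2% had it at every stage. Of 11 EMT regulators, 7, 9 and 8 had promoter H3K27ac, and 7 had it at every stage. Foxc2, a forkhead factor of mesoderm, had it in lA only (0.975% of coding genes), as did Snai1. Prrx1, a mesenchymal homeobox factor, and Tgfb1, the TGF-β ligand, had it in eA only (2.54%). Of 15 epithelial genes, 1, 4 and 2 had promoter H3K27ac, and 11 had it at no stage, as had 44.2% of coding genes, while promoter H3K4me1 was present in 10, 10 and 9, to be read against 55.4%, 53.6% and 52.7% of coding genes. The epithelial genes whose state changed were Krt8, a simple epithelial keratin, and Ocln, a tight junction protein, both in eA only, and Crb3, a polarity protein, in eA and lA, a pattern of 1.68% of coding genes.

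Of 10 mesenchymal genes, 4, 5 and 6 had promoter H3K27ac, beside 50.6%, 53.2% and 48.2% of coding genes. Mmp2, a matrix metalloproteinase, had it in lA only (0.975%), and Acta2, smooth muscle actin, carried it in eA and lA (1.68%). Of 18 other cadherins, 8, 6 and 6 had it, to be read against the same shares. Cdh20 had it in aNPC and eA (3.74% of coding genes), Cdh19 in aNPC only (1.31%), and Cdh17 in aNPC and lA (0.309%). Of 7 catenins, the cytoplasmic partners of cadherins, all 7 had promoter H3K27ac in each list, a state of 45.2% of coding genes.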

How the data were processed

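H3K27ac and H3K4me1 ChIP-seq of aNPC, eA and lA was analysed. The authors kept reads that Bowtie placed once on mm9, pooled the 2 replicates using SAMtools 0.1.19 and called peaks with MACS2 at default parameters without input. The deposited lists give for each peak its position, its summit offset and the −log10 q of the authors' peak caller, which was read within one list only because depth is unknown. Mitochondrial peaks, 4 or 5 per list, were set aside. Gene models were those of GENCODE M1, on mm9. An overlap of 1 bp counted as shared, and a peak was distal if it overlapped no promoter of the gene. Motif letters had to match without mismatch, on either strand. Python 3.11.15, NumPy 2.4.6, pysam 0.24.0, samtools 1.23.1 and matplotlib 3.10.9 were used, after the overlap steps had been checked on simulated peaks. The text names all 10 genes, most of their promoter peaks and many of their highest distal and one-stage peaks. It also names other pathway genes whose promoter H3K27ac differed between stages. Genes and lists were chosen with earlier results of these data known. Peak thresholds, list lengths, windows, joining, overlap and promoter rules were varied. RNA-seq, knockdown samples and 8 libraries with conflicting labels, of 51 samples, were not analysed here.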

Additional observations from a re-analysis of the deposited data

How the results depend on the processing

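The counts over the 10 genes stayed within 1.5-fold of the reported value under most alternatives, among them windows of 5 and 50 kb, lists of equal length, a promoter of 1 kb on either side of any start, and sharing by summits. With peaks less than 1 kb apart joined, H3K27ac regions numbered 75, 75 and 70 over the stages in order, so the higher aNPC total was not kept, and distal regions found at one stage only fell to 28 in aNPC and 18 in lA. Joining by construction gives fewer regions. At a −log10 q of at least 5, the distal H3K27ac peaks found in eA only fell to 13. With 500 bp around the summit in place of 200, matches summed over the 3 lists rose from 41 to 96 for CAGGTG, from 57 to 112 for CAGATG, from 16 to 43 for TGANTCA, from 29 to 87 for TTGGCA and from 16 to 29 for AACCACA, in windows that are longer. Some shares then turned against those of all peaks. CAGATG was at 34.2% of the aNPC peaks of these genes against 36.5%, AACCACA at 8.77% against 10.5% and TTGGCA at 33.3% against 30.2%. In lA CAGATG was at 34.0% against 35.6% and AACCACA at 10.7%, the share of all peaks. CAGGTG stayed above the share of all peaks in eA and below it at the other stages, at 28.1%, 36.7% and 27.2% against 28.7%, 27.6% and 29.6%. Lists of equal length gave 203, 187 and 196 H3K4me1 peaks, so the higher H3K4me1 totals of eA and lA were not kept there, nor were the tallies of genes with more and fewer H3K4me1 peaks than in aNPC. For H3K27ac, 3 genes then had more peaks in lA than in eA and 5 fewer, against 22.8% and 35.5% of coding genes. At a −log10 q of at least 5 it was 5 and 3, against 26.2% and 28.6%, and from aNPC to eA 4 and 4, against 37.3% and 21.2%. No paired analysis was possible because each list merges both replicates of its stage, and for the same reason no replicate could be left out.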

Other observations

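The genes in this paragraph were singled out after their values were seen. Values are again for aNPC, eA and lA. Among the catenins and other cadherins, H3K4me1 peaks in the gene windows were more numerous in eA and lA than in aNPC at several long genes. Ctnna2, the neural α-catenin that links cadherins to actin, had 51, 84 and 163 H3K4me1 peaks, and 51, 68 and 114 with lists of equal length, a count added after seeing the data. Ctnnd2, a neural relative of p120 catenin, had 80, 112 and 157 H3K4me1 peaks (80, 96 and 100 at equal length) and 41, 69 and 75 H3K27ac peaks. Cdh13, a cadherin without a cytoplasmic tail, had 82, 110 and 116 H3K4me1 peaks, but 82, 85 and 81 at equal length. The gene Cdh6 had 18, 22 and 30, and 18, 17 and 20 at equal length. Cdh20 went the other way, with 40, 32 and 29 H3K4me1 peaks and 25, 15 and 11 H3K27ac peaks. Grhl2, an epithelial transcription factor with no promoter H3K27ac in any list, had 14, 4 and 1 H3K27ac peaks, while its H3K4me1 peaks numbered 15, 17 and 14, or 15, 14 and 9 at equal length.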
